A study of Mus musculus with 16 samples.

Results

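The BCL2 family sets whether the outer mitochondrial membrane of a cell is opened during apoptosis. Its messenger RNAs were followed in Paneth cells, the antimicrobial secretory cells at the base of the small intestinal crypts, after injections of mice with TNF (tumour necrosis factor), DEX or both. The 10 genes were chosen by name, as pro- and anti-apoptotic members of the family, out of 55414 genes in the table of read counts. They comprised 3 anti-apoptotic genes (Bcl2, Bcl2l1 and Mcl1), 2 pore-forming effectors (Bax and Bak1) and 5 BH3-only genes (Bid, Bad, Bbc3, Pmaip1 and Bcl2l11). All 10 passed the filter on low counts, which left 11809 genes for testing. Mice were given PBS (the vehicle) or DEX first, then PBS or TNF 1 h later, and were sampled 3 h after that second injection. Group names give both injections in order. The controls were PBS+PBS and DEX+PBS and the TNF groups PBS+TNF and DEX+TNF, each with 4 libraries that the design text calls biological replicates. DEX commonly stands for the synthetic glucocorticoid dexamethasone, but the labels and methods use only the short form. The methods name C57BL/6J mice and cells sorted from the small intestine of individual animals. Dose, age and sex are not given in the sources used here.

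Anti-apoptotic members hold the pro-apoptotic ones in check on the mitochondrial surface. BAX and BAK, the proteins of Bax and Bak1, form the pores through which cytochrome c leaves the mitochondrion, and the BH3-only proteins are the sensors that either neutralise the anti-apoptotic members or activate BAX and BAK directly. TNF is linked to this system through caspase-8, which cleaves BID into an active fragment, while NF-kB, the transcription factor activated by TNF, drives genes that protect cells from death.

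Library totals ran from 7286307 to 15832111 counts, and alpha-defensin (Defa) genes took 32.2% to 59.3% of them. Of the Paneth cell markers examined, none was at 0 in any group, and together they reached 408305 to 609687 CPM (counts scaled to equal library totals) in the 16 libraries. Immune markers summed to 25.7 to 106 CPM, with Cd3e, S100a8, S100a9 and Itgax at 0 in every group, and stromal markers to at most 1.12 CPM. Goblet cell markers had the highest sum outside the Paneth list, 8439 to 21920 CPM, with medians of 15529 in PBS+PBS, 20251 in PBS+TNF, 15171 in DEX+PBS and 10654 in DEX+TNF, and their part in the results was not tested. The libraries labelled DEX+TNF 3 and 4 stood apart. Nfkbia, an early NF-kB target, was at 330 and 382 normalised CPM (CPM after TMM scaling, which corrects for differences in library composition) in DEX+TNF libraries 1 and 2 but at 28.3 and 41.0 in libraries 3 and 4, against 20.3 ± 3.88 (SD, n = 4) in PBS+PBS and 308 ± 24.8 (n = 4) in PBS+TNF. Sgk1, a glucocorticoid-induced gene, stood at 24.8, 32.4, 33.6 and 115 normalised CPM in DEX+TNF libraries 1 to 4, all above its PBS+PBS range of 1.11 to 3.64. Tsc22d3, another such gene, was at 11.4, 10.7, 24.9 and 49.4. Libraries 1 and 2 lay within its PBS+PBS range of 10.1 to 16.8, but all 4 lay above its PBS+TNF range of 4.82 to 7.13. Of 2 other DEX-responsive genes, Fkbp5 was at 43.2, 44.5, 44.6 and 134.98 in DEX+TNF libraries 1 to 4. All lay above its ranges of 6.51 to 21.4 in PBS+PBS and 12.3 to 31.05 in PBS+TNF. Per1 was at 25.2, 30.2, 12.8 and 24.9. Library 3 alone lay inside its ranges of 8.92 to 17.99 in PBS+PBS and 11.8 to 21.4 in PBS+TNF. In DEX+PBS, Nfkbia was at 19.5 to 27.3 normalised CPM, below both library 3 and library 4 of DEX+TNF. Whether the mice of libraries 3 and 4 received TNF, whether labels were exchanged or whether DEX weakened the response to TNF was not tested. Means and fold changes of DEX+TNF therefore describe the libraries as labelled. Library 4 further had the highest sums of enterocyte (487 CPM), tuft (856 CPM) and stem cell markers (1825 CPM) of all 16. For the members, the calls of each comparison that used the DEX+TNF group were therefore given with and without these 2 libraries.

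The region before the start of the genes was searched for binding motifs because 4 of the members rose after TNF, as described below. RefSeq promoter sequences (GRCm39) were matched by symbol for 9 of the 10 members, with 15 start sites between them; Pmaip1 was not matched. The 250 bases upstream of each start were searched on both strands for the NF-kB consensus, for the STAT site GAS (TTCNNNGAA) and for the paired IRF motif, which occurred in 7.25%, 7.02% and 2.98% of the 32851 promoter entries. None of these motifs was found in the windows of Mcl1, Bak1 or Bid. An NF-kB match was present before 1 of 3 starts of Bbc3 and 1 of 3 starts of Bcl2l1. Shown are the window of Mcl1, the most abundant member, whole, and the 2 matches with their flanks, which lie in annotated exons. Capitals mark the NF-kB match in Bbc3 (137 to 127 bases before the start, where overlapping matches run together) and in Bcl2l1 (242 to 233 bases before it), and in Mcl1 a stretch with 1 mismatch to the consensus (28 to 19 bases before the start).
Mcl1, chr3:95565782-95566031, plus strand: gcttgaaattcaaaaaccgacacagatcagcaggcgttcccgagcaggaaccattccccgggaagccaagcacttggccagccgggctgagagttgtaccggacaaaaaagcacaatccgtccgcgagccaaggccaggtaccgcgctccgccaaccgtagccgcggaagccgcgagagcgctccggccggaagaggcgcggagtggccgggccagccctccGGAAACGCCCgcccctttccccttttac
Bbc3, chr7:16043361-16043390, plus strand: tctggctgccGGGAAACCCCCcgcgccgag
Bcl2l1, chr2:152672858-152672887, minus strand: tgtttgtgGGGGGTCTCCagcatacgcctc
A stretch with at most 1 mismatch was common, being present in 56.6% of all entries, so that the capitals in Mcl1 are no more than a description. Both genes with a full match were among the 6 members that did not pass the test after TNF. The windows hold only 250 bases and Pmaip1 has none, so the search cannot tell whether NF-kB acts on a member. That was not tested.

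In the PBS+PBS controls Mcl1 was the highest of the 10 genes. Per kilobase of exon, Mcl1 reached 13.6 ± 2.64 normalised CPM in PBS+PBS (SD, n = 4), followed by Bak1 at 7.03 ± 1.84, Bax at 3.87 ± 1.73 and Bad at 3.57 ± 3.29. Pmaip1 (1.94), Bcl2l1 (1.31), Bbc3 (0.866) and Bcl2 (0.794) were lower on that scale, and Bid (0.237) and Bcl2l11 (0.190) were the lowest. The range of Mcl1 over its 4 libraries did not overlap that of Bak1, and that of Bcl2 did not overlap that of Bid. All other neighbours in the order overlapped, so their ranks are not separated by these libraries. With the length of the longest transcript in place of all exons, the order changed only among Bak1, Bax and Bad. In PBS+TNF, Mcl1 (32.6 CPM per kilobase) and Bak1 (18.2) were again the highest, and Pmaip1 (4.73) and Bid (2.14) held the third and the fifth rank instead of the fifth and the ninth.

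**Figure D1:**
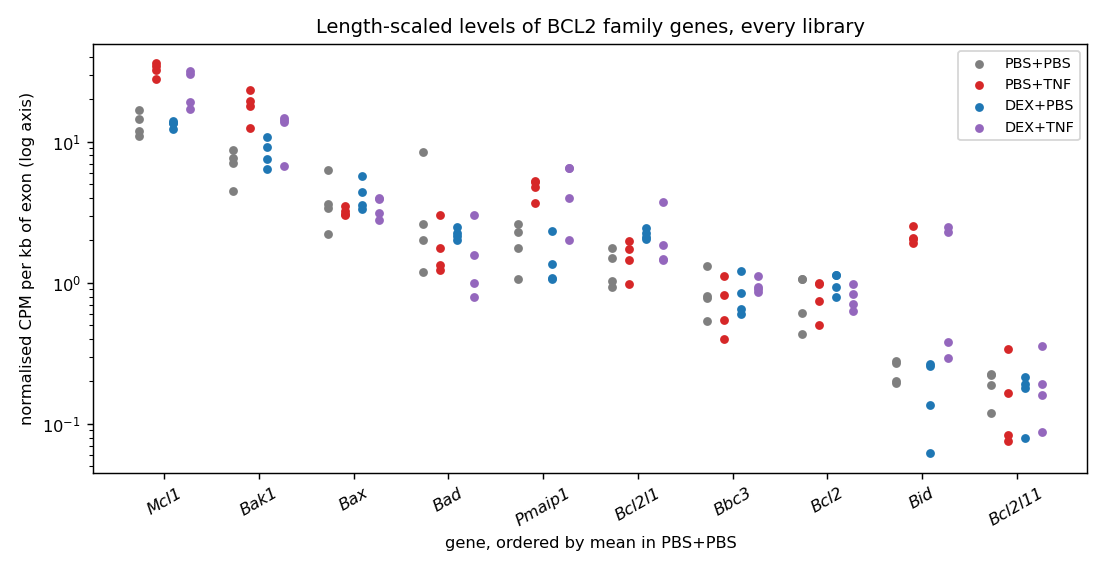
Level of each gene per kilobase of exon (normalised CPM per kb, log axis) in the 4 libraries of each group, 1 point per library, with genes ordered by their mean in PBS+PBS. Mcl1 is at the top in every group, and the 4 PBS+TNF points of Bid lie above all its PBS+PBS points.

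TNF given after PBS was compared with PBS alone to see what the cytokine did to the family. Of the 10 members 4 rose, 1 anti-apoptotic gene (Mcl1), 1 effector (Bak1) and 2 BH3-only genes (Bid and Pmaip1), and no member fell. Over all tested genes the percentage called by the edgeR quasi-likelihood test (Benjamini-Hochberg adjusted p under 0.05) was 12.5% in either direction and 7.15% in the upward direction. The same 4 members had no overlap between the 4 PBS+TNF and the 4 PBS+PBS libraries, a pattern that 19.5% of tested genes showed. With DEX+TNF libraries 3 and 4 left out of the shared fit, 17.7% of genes and again 4 members were called. In sorted bulk cells, a change in RNA per cell and a change in the share of cells with that RNA cannot be told apart.

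Among the anti-apoptotic genes, Mcl1 (ENSMUSG00000038612, chromosome 3, 95566026 to 95570487, plus strand, GRCm39) encodes a short-lived protein that binds BAK and several BH3-only proteins. Its levels were 59.0, 41.8, 50.6 and 38.6 normalised CPM in PBS+PBS libraries 1 to 4 and 125, 119, 113 and 97.8 in PBS+TNF. The lowest TNF library was thus well above the highest control. Mcl1 rose 2.39-fold, with a log2 fold change of 1.26 ± 0.22 (SE, adjusted p = 0.00223, edgeR). Bcl2, the founding anti-apoptotic member, was at 4.02 to 9.82 normalised CPM in PBS+PBS and 4.62 to 9.22 in PBS+TNF, with a log2 difference of 0.03 ± 0.29 (adjusted p = 0.970, edgeR). Bcl2l1, which encodes BCL-XL, was at 4.80 to 9.02 and 5.01 to 10.2 normalised CPM, with a log2 difference of 0.24 ± 0.31 (adjusted p = 0.691, edgeR). In both genes the groups overlapped over most of their range.

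**Figure D2:**
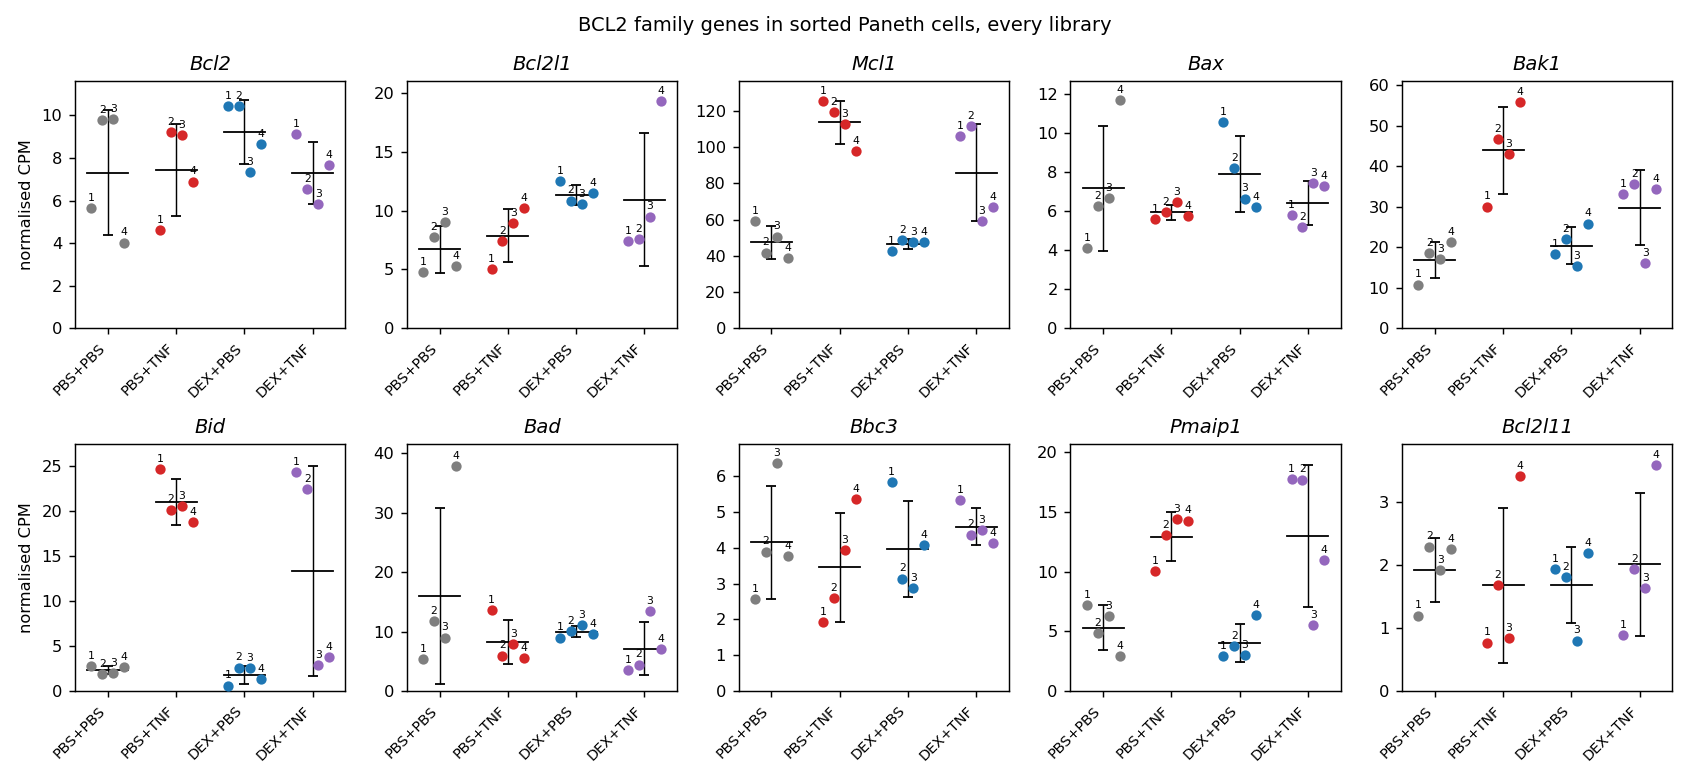
Normalised CPM of the 10 genes in every library (points, numbered by replicate), with the mean (line) and SD (bar) of each group of 4. For Mcl1, Bak1, Bid and Pmaip1 the PBS+TNF points lie above all PBS+PBS points, and in DEX+TNF libraries 3 and 4 Bid is at 2.86 and 3.74 against 24.3 and 22.4 in libraries 1 and 2.

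Of the pore-forming effectors 1 rose and the other did not pass. Bak1 (ENSMUSG00000057789, chromosome 17, 27238784 to 27247983, minus strand) was at 10.8, 18.5, 17.1 and 21.2 normalised CPM in PBS+PBS and at 30.1, 46.7, 43.0 and 55.9 in PBS+TNF, without overlap. Library 1 was the lowest in both groups. Bak1 rose 2.60-fold (log2 fold change 1.38 ± 0.28, adjusted p = 0.00489, edgeR). The annotated genes Gm50253 and Ggnbp1, on the opposite strand, overlap exons of Bak1, and whether strand was used in counting is not stated, so the source of these reads is uncertain to that extent. Bax was at 4.11 to 11.7 normalised CPM in PBS+PBS and at 5.59 to 6.47 in PBS+TNF, with a log2 difference of -0.26 ± 0.28 (adjusted p = 0.621, edgeR). The highest Bax value of all, 11.7, came from PBS+PBS library 4, whose TMM factor was the lowest of its group (0.503). Read counts of Bax in PBS+PBS libraries 1 to 4 were 48, 98, 125 and 93.

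Of the BH3-only genes, Bid had the largest log2 fold change of the 10 members. Bid (ENSMUSG00000004446, chromosome 6, 120862525 to 120894171, minus strand) encodes the caspase-8 substrate that joins death receptors to mitochondria. It was at 2.74, 1.92, 1.98 and 2.64 normalised CPM in PBS+PBS, from 21 to 37 reads a library, and at 24.7, 20.1, 20.5 and 18.7 in PBS+TNF. Every TNF library was several times above every control library. Bid rose 9.10-fold (log2 fold change 3.19 ± 0.58, adjusted p = 0.00261, edgeR).

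Pmaip1 (ENSMUSG00000024521, chromosome 18, 66591604 to 66598636, plus strand) encodes NOXA, a BH3-only protein that binds MCL1 and promotes its degradation. Its levels were 7.20, 4.85, 6.25 and 2.89 normalised CPM in PBS+PBS and 10.02, 13.02, 14.4 and 14.3 in PBS+TNF. The groups were separate, though the highest control and the lowest TNF library were near each other. Pmaip1 rose 2.43-fold (log2 fold change 1.28 ± 0.36, adjusted p = 0.0266, edgeR), and its call rested on single libraries. It was lost when PBS+PBS library 2 or 4 or PBS+TNF library 2, 3 or 4 was left out, with the adjusted p reaching 0.0716.

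The other 3 BH3-only genes did not pass the test. Bad, whose protein is held inactive by 14-3-3 proteins when phosphorylated by survival kinases, was at 5.40, 11.8, 8.97 and 37.8 normalised CPM in PBS+PBS and at 13.7, 5.97, 7.87 and 5.50 in PBS+TNF. Library 4 of PBS+PBS lay far above the rest. The log2 difference of Bad was -0.97 ± 0.51 (adjusted p = 0.242, edgeR), and leaving out single libraries moved it between -1.30 and -0.14. PBS+PBS library 4 had a TMM factor of 0.503, where the other 3 of its group had 1.04 to 1.31, and a lower factor gives a higher normalised CPM. Read counts of Bad in PBS+PBS libraries 1 to 4 were 63, 185, 168 and 301. Library 4 also had an enterocyte marker sum of 124 CPM, where the other 3 of its group had 19.2 to 20.8. The parts of the TMM factor and of these markers in the values of Bad and Bax were not tested. Bbc3, which encodes the p53-induced sensor PUMA, was at 2.57 to 6.35 normalised CPM in PBS+PBS and 1.93 to 5.35 in PBS+TNF (log2 difference -0.24 ± 0.34, adjusted p = 0.725, edgeR). Bcl2l11, which encodes BIM, had the fewest reads of the family, 4 to 72 a library, and its log2 difference was -0.14 ± 0.51 (adjusted p = 0.912, edgeR).

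Summed by role on the length scale, all 3 classes had higher means in PBS+TNF. The anti-apoptotic genes summed to 15.7 ± 2.69 CPM per kilobase in PBS+PBS and 35.0 ± 2.97 in PBS+TNF (SD, n = 4), the effectors to 10.9 ± 3.44 and 21.4 ± 4.48, and the BH3-only genes to 6.80 ± 2.697 and 9.60 ± 0.513. The ranges did not overlap for the first 2 classes (12.5 to 18.5 against 30.8 to 37.4, and 6.70 to 15.1 against 15.5 to 26.3). For the BH3-only genes they did, through PBS+PBS library 4 at 10.8, the library with the high Bad value. These sums follow their most abundant gene, which was Mcl1 in the first class and Bak1 in the second, and they were not tested.

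The same question was asked in mice that had received DEX first, by comparing DEX+TNF with DEX+PBS. Bid was the member that rose. It was at 0.607, 2.59, 2.52 and 1.33 normalised CPM in DEX+PBS and at 24.3, 22.4, 2.86 and 3.74 in DEX+TNF, so that libraries 1 and 2 were at the level of PBS+TNF and libraries 3 and 4 just above the DEX+PBS range. The log2 fold change of Bid was 2.90 ± 0.59 (adjusted p = 0.0456, edgeR). This call is not firm, since it was lost without the low-count filter, with only the 2 groups in the fit, with the replicate number as a block (adjusted p = 0.157), and on leaving out any library other than DEX+TNF 3 or 4 (adjusted p up to 0.203). Of all tested genes 0.339% were called in this comparison, 0.322% upward, and 4.68% had no overlap, as did the 2 members Bid and Mcl1.

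Mcl1 and Pmaip1, like Bid, had their highest values of this comparison in DEX+TNF libraries 1 and 2. Mcl1 was at 42.7, 48.8, 47.5 and 47.6 normalised CPM in DEX+PBS and at 106, 112, 59.2 and 67.1 in DEX+TNF. All 4 DEX+TNF libraries were above all DEX+PBS libraries, with libraries 3 and 4 the nearer ones. Its log2 difference was 0.88 ± 0.22 (adjusted p = 0.114, edgeR). Pmaip1 was at 2.91, 3.74, 2.98 and 6.32 in DEX+PBS and at 17.7, 17.7, 5.51 and 10.97 in DEX+TNF, where library 3 lay within the DEX+PBS range. Its log2 difference was 1.68 ± 0.36 (adjusted p = 0.0636, edgeR).

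DEX+TNF libraries 3 and 4 were set apart by their low Nfkbia, so leaving them out favours genes that rise with TNF. The p-values of that fit are therefore a description only. Without these 2 libraries, 10.5% of genes were called in this comparison and 3 members rose, Bid (log2 fold change 3.70), Mcl1 (1.22 ± 0.20, adjusted p = 0.000795, edgeR) and Pmaip1 (2.12 ± 0.33, adjusted p = 0.000525, edgeR). DESeq2 called the same 3 genes with all libraries, among 259 over all tested genes. Bak1 did not pass in either fit. It was at 18.3, 22.1, 15.3 and 25.8 normalised CPM in DEX+PBS and 33.2, 35.5, 16.1 and 34.4 in DEX+TNF, with library 3 alone inside the DEX+PBS range. The log2 difference of Bak1 was 0.54 ± 0.28 (adjusted p = 0.521, edgeR) with all libraries and 0.75 ± 0.28 (adjusted p = 0.104) without the 2. The remaining 6 members had log2 differences between -0.49 and 0.26 with all libraries. Without the 2 they lay between -1.31 (Bad) and 0.29 (Bbc3), with Bcl2l1 at -0.59 and Bax at -0.52. None of the 6 passed in either fit.

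**Figure D3:**
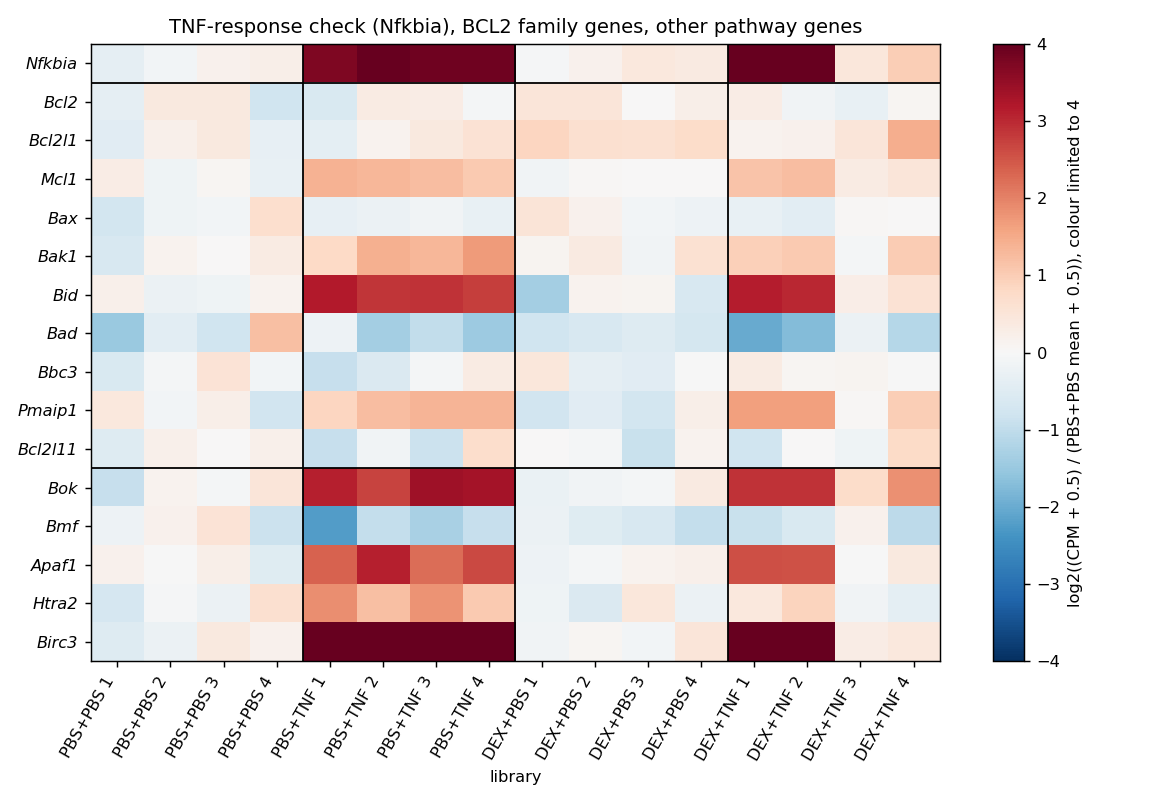
Each row is a gene and each column a library; colour is the log2 ratio of normalised CPM (plus 0.5) to the PBS+PBS mean (plus 0.5), limited to 4 in either direction. Nfkbia, Mcl1, Bid, Apaf1 and Birc3 are red in the PBS+TNF libraries and in DEX+TNF libraries 1 and 2 and much paler in DEX+TNF libraries 3 and 4.

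DEX by itself was compared with PBS. No member passed in DEX+PBS versus PBS+PBS, and over all genes 0.00847% were called, which was Sgk1 alone. DESeq2 called 7 genes and no member. At an unadjusted p under 0.05, edgeR had 224 of the 11809 tested genes, among them 1 member. That member was Bcl2l1, at 4.80, 7.72, 9.02 and 5.28 normalised CPM in PBS+PBS and at 12.5, 10.9, 10.5 and 11.5 in DEX+PBS. All DEX+PBS libraries were above all PBS+PBS libraries, which held for 1 of the 10 members and for 1.88% of tested genes. The difference of Bcl2l1 was 0.75 ± 0.31 on the log2 scale (unadjusted p = 0.0281, adjusted p = 1.00, edgeR), so it failed the correction. Leaving out single libraries kept it between 0.62 and 0.92. Mcl1 was near 0 in this comparison, at -0.03 ± 0.22.

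DEX before TNF was compared with PBS before TNF, to ask whether DEX altered the levels reached with TNF. No member passed in DEX+TNF versus PBS+TNF (0.339% of tested genes called, and 0 members at an unadjusted p under 0.05 or with DESeq2). No member was free of overlap, as were 6.38% of genes. With all libraries the largest differences were those of Bid (-0.66 ± 0.52), Bak1 (-0.56 ± 0.28) and Bcl2l1 (0.46 ± 0.31). Without DEX+TNF libraries 3 and 4 these became 0.16, -0.36 and -0.09, so that the sign of Bid and Bcl2l1 depended on the libraries labelled DEX+TNF 3 and 4. Bad moved from -0.19 ± 0.51 to -0.999 ± 0.61 and then had the largest difference of the 10 (adjusted p = 0.573, edgeR). For Bcl2l1, library 4 of DEX+TNF was at 19.3 normalised CPM while the other 3 were at 7.42 to 9.49. This is the library with the high enterocyte, tuft and stem cell marker sums, and their part in the value was not tested.

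The interaction, which is the log2 effect of TNF after DEX minus that after PBS, was past the threshold for no member and for 0% of tested genes in edgeR. At an unadjusted p under 0.05 there were 642 genes, among them 1 member, and DESeq2 called 9 genes and no member. The member was Bak1 (-0.84 ± 0.39, unadjusted p = 0.0471, adjusted p = 0.905, edgeR). Without DEX+TNF libraries 3 and 4 the value of Bak1 was -0.64 ± 0.38. A difference in the TNF response of any member after DEX was therefore not shown by these libraries.

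**Figure D4:**
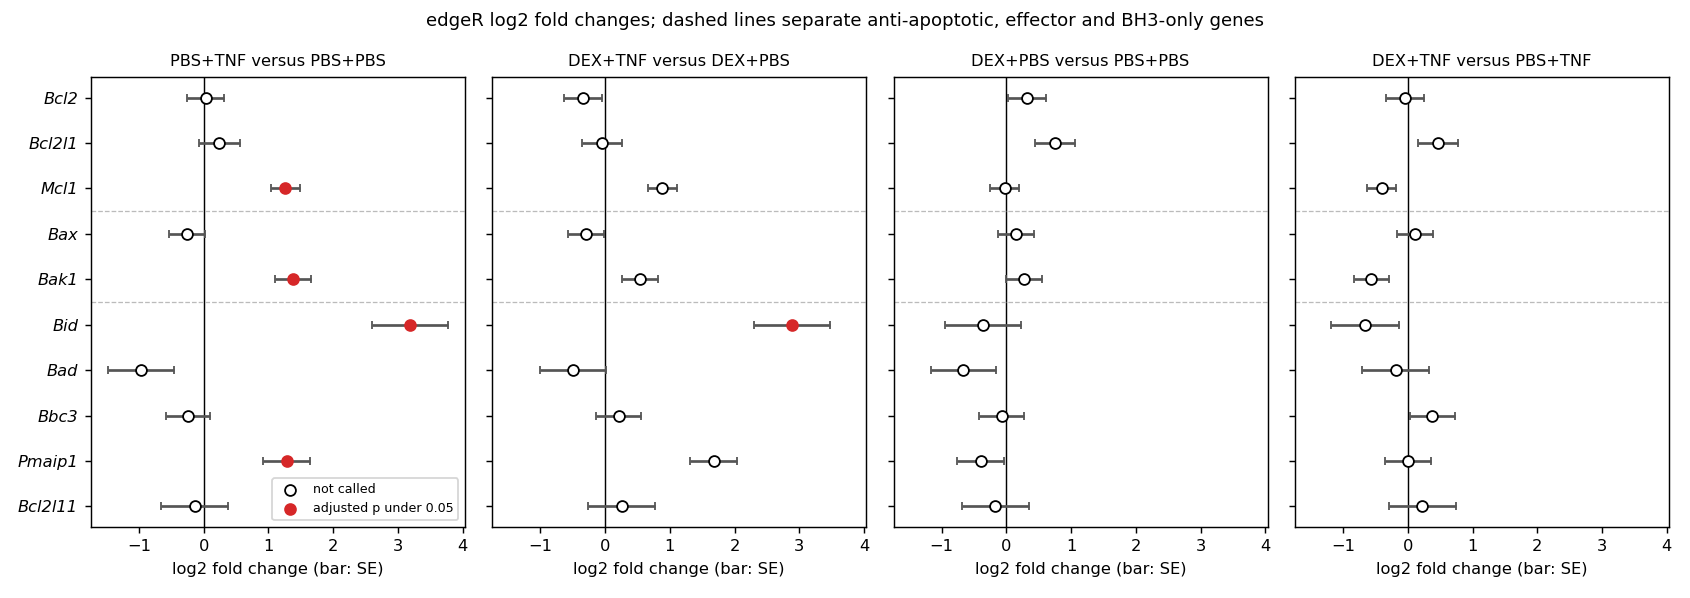
Log2 fold change (point) and SE (bar) of each gene in the 4 comparisons, with filled points for an adjusted p under 0.05 in edgeR. Filled points are Mcl1, Bak1, Bid and Pmaip1 after TNF without DEX, and Bid after TNF with DEX; the panels that compare DEX with PBS hold none.

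The remaining family members and BNIP genes were taken as a list. Of 19 such genes 12 were tested, since Bcl2l10 and 3 of the 4 Bcl2a1 paralogs had no counts and Bcl2a1a, Hrk and Bcl2l15 had at most 5 in total. The handling of multi-mapping reads is not given, so a lack of counts for the Bcl2a1 paralogs need not mean a lack of RNA. In PBS+TNF versus PBS+PBS 1 of the 12 rose and 1 fell, where 12.5% of all tested genes were called, and the median log2 difference was -0.02, against -0.03 over all tested genes. Bok, which encodes a BAX-like effector, rose from 0.685, 1.98, 1.60 and 2.64 normalised CPM to 18.7, 13.99, 23.1 and 22.1 (log2 fold change 3.51 ± 0.46, adjusted p = 0.000436, edgeR). Bmf, a BH3-only gene, fell from 10.1, 13.4, 17.4 and 6.28 to 2.12, 5.85, 4.50 and 6.04 (log2 fold change -1.32 ± 0.36, adjusted p = 0.0231, edgeR). For both genes the groups did not overlap, though the lowest control and the highest TNF library of Bmf nearly met. The call of Bmf was lost when PBS+PBS library 2 or 3 or PBS+TNF library 1 or 3 was left out (adjusted p up to 0.0823). After DEX, Bok rose as well (2.62 ± 0.45, adjusted p = 0.0456, edgeR), with 15.9, 16.0, 3.16 and 7.43 normalised CPM in DEX+TNF. As for Bid, this call of Bok was lost with the replicate number as a block (adjusted p = 0.117) and on leaving out any library other than DEX+TNF 3 or 4 (adjusted p up to 0.183). Without both of these, which were set apart by low Nfkbia, the value of Bok was 3.20 ± 0.35 (adjusted p = 1.64e-05, edgeR), a description only.

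A list named downstream of the pore held 17 genes, not all of which act after the pore (Birc3 and Vdac1, for example). Of these 17 genes, 4 rose after TNF (12.5% of all tested genes were called) and none fell in the fit of all libraries, with a median log2 difference of -0.02. Among them were Birc3, an NF-kB target that restrains caspase-8 activation (4.41 ± 0.75, adjusted p = 0.00172), Apaf1, the scaffold of the apoptosome (2.68 ± 0.47, adjusted p = 0.00218), and Htra2, a mitochondrial protease that antagonises the IAP proteins (1.56 ± 0.34, adjusted p = 0.00687, all edgeR). Apaf1 went from 7.54 to 12.9 normalised CPM in PBS+PBS to 52.5 to 98.0 in PBS+TNF. It was at 67.0, 66.0, 10.7 and 14.5 in DEX+TNF, again low in libraries 3 and 4. Casp9, which APAF1 activates, had a log2 difference of -0.71 ± 0.24 that missed the threshold (adjusted p = 0.0641, edgeR). Casp9 was called lower by DESeq2 (adjusted p = 0.0457) and, as was Vdac1, which encodes a channel of the outer mitochondrial membrane, by edgeR without DEX+TNF libraries 3 and 4 (adjusted p = 0.0425 and 0.0270), so that 6 genes of this list were then called. Vdac1 was at 54.9 to 65.7 normalised CPM in PBS+PBS and 34.2 to 51.7 in PBS+TNF, without overlap, with a log2 difference of -0.58 ± 0.22 in the fit of all libraries (adjusted p = 0.102, edgeR, and 0.0437 with the replicate block).

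Of the upstream regulators, 17 of 19 were tested and 6 rose after TNF (12.5% of all tested genes were called), none fell, and the median log2 difference was 0.75. They were Rela (2.17 ± 0.52) and Nfkb1 (1.84 ± 0.44), which encode subunits of NF-kB, Stat3 (1.42 ± 0.44), Trp53 (1.24 ± 0.31), Casp8 (1.12 ± 0.21) and Ywhaz (0.75 ± 0.23), a 14-3-3 gene (adjusted p from 0.00322 to 0.0422, edgeR). The calls of Stat3 and Ywhaz rested on single libraries. That of Stat3 was lost on leaving out any of 12 libraries, all those outside DEX+TNF (adjusted p up to 0.112), and that of Ywhaz on leaving out any of 10, which were all 4 of PBS+TNF, libraries 2, 3 and 4 of PBS+PBS and libraries 1, 2 and 4 of DEX+PBS (adjusted p up to 0.0986). Casp8, whose product cleaves BID, went from 17.9 to 24.6 normalised CPM in PBS+PBS to 41.2 to 49.6 in PBS+TNF. Of 12 p53 target genes outside the family, 2 rose (Fas, 2.85 ± 0.58, and Tnfrsf10b, 2.02 ± 0.51) and 2 fell (Eda2r, -1.51 ± 0.45, and Ei24, -0.64 ± 0.18), with a median of -0.31 (adjusted p from 0.00507 to 0.0349, edgeR). The call of Eda2r was lost without PBS+PBS library 1 or 4 or any library of PBS+TNF, that of Ei24 without PBS+PBS library 1 or 2 or PBS+TNF library 1, 3 or 4, and that of Tnfrsf10b without PBS+PBS library 2 (adjusted p up to 0.0922, 0.0895 and 0.0554). Fas and Tnfrsf10b encode death receptors, and for Tnfrsf10b the groups overlapped at low levels (0.251 to 1.20 and 1.12 to 3.66 normalised CPM). The p53-induced members Bax and Bbc3 did not pass, whereas Pmaip1, which p53 induces as well, did. These need not be all the members that p53 induces, and the part of p53 in any change was not tested.

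In DEX+TNF versus DEX+PBS no gene of the downstream, upstream or p53 lists was called by edgeR. An unadjusted p under 0.05 was reached by 3 of 17, 7 of 17 and 2 of 12, and by 1227 of all 11809 tested genes. DESeq2 called 2, 1 and 1 of the lists and 259 genes over all. Without DEX+TNF libraries 3 and 4 the counts of calls were 3, 8 and 2, where 10.5% of all tested genes were called. These counts are a description, since the 2 libraries were set apart by low Nfkbia. No gene of the 4 lists was called in DEX+PBS versus PBS+PBS, where 0 had an unadjusted p under 0.05 and DESeq2 called 0. None was called by edgeR in DEX+TNF versus PBS+TNF either, where, for the other family members and the downstream, upstream and p53 lists in turn, 2, 3, 2 and 4 genes had an unadjusted p under 0.05 and DESeq2 called 0, 1, 0 and 1. Over all 11809 tested genes, 1408 had an unadjusted p under 0.05 in that comparison and DESeq2 called 274. Without DEX+TNF libraries 3 and 4, edgeR called 0 of all tested genes there.

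The members called after TNF were chosen for a difference between groups, so positive correlation over the 16 libraries follows in part from that choice. As a description over libraries that share their groups, Pearson's r of log2 normalised CPM was 0.95 between Mcl1 and Bid, 0.90 between Mcl1 and Pmaip1 and 0.85 between Bid and Pmaip1, while Bak1 had 0.74 to 0.75 with each of these. The genes most like Mcl1 over the 16 libraries were Samd9l (r = 0.977), Zfp36 (0.973) and Rel (0.973). Those most like Bid were Ywhah (0.975), Casp4 (0.970) and Neurl3 (0.969). Bak1 was closest to Actb (0.958), Prkab1 (0.952) and Sptlc2 (0.936), and Pmaip1 to Rhbdf2 (0.949), Mdm4 (0.938) and Celsr3 (0.924). No gene was shared between these 4 sets of 3. Among the members that were not called after TNF, Bcl2 and Bcl2l1 had an r of 0.56, and Bax and Bad of 0.67. Both Bax and Bad had their highest value in PBS+PBS library 4. Other pairs of these members were negative, down to -0.45 (Bcl2 and Bad). Between called and not called members, r went down to -0.72 (Bad and Pmaip1).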

How the data were processed

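The authors deposited raw read counts per Ensembl gene for 16 libraries of sorted mouse Paneth cells, 4 in each of 4 injection groups. The labels name a stranded mRNA library kit, FastQC 0.12, STAR 2.7.10a, build mm39 and DESeq2, and the study's methods name the GENCODE M30 annotation. The program that made the counts, its use of strand and its handling of multi-mapping reads are not given in the sources used here. The sample titles gave group and replicate number. Symbols, coordinates and exon lengths were taken from GENCODE M39 on GRCm39, which held 54749 of the 55414 identifiers.

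Genes were filtered with filterByExpr and scaled with TMM factors (0.418 to 1.50), and normalised CPM use these factors, whereas marker sums are plain CPM. The quasi-likelihood test of edgeR 4.0.16 (robust, R 4.3.3) was run on all 16 libraries, with 1 mean for each group. The 4 comparisons and the interaction were adjusted by Benjamini-Hochberg over 11809 genes, with a call at an adjusted p under 0.05. The SE is the size of the log2 fold change divided by the square root of F. The scripts were tested on simulated data. Correlations used log2 CPM with a prior count of 2. The p-values measure the spread between these libraries only.

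Named genes were all 10 members, up to 6 called genes of each pathway list in a comparison, the 3 genes most correlated with each called member, and Nfkbia. The values of 1 gene that this rule names are not reported here. Casp9, Vdac1, Fkbp5, Per1 and the genes overlapping Bak1 were named beyond that rule after their values were seen. Sgk1 and Tsc22d3, which were called in the fit of all libraries, belong with Fkbp5 and Per1 to a set list of 4 DEX-responsive genes. Without DEX+TNF libraries 3 and 4, 0 of these 4 were called in DEX+TNF versus PBS+TNF and 2 in DEX+PBS versus PBS+PBS. The marker genes come from set lists of cell types. The members and lists were chosen with earlier results of these data known. Alternatives were other scaling factors (RLE, upper quartile, TMM without Defa genes), no low-count filter, DESeq2 1.42.0, only the 2 groups compared, a replicate block, and leaving out DEX+TNF libraries 3 and 4 together or each of the 16 libraries. No library pair was close to sampling noise, and all were counted as separate samples. DEX+TNF libraries 1 and 2 were the most alike, with a chi-square of counts per degree of freedom of 8.78. The other pairs within a group had 23.5 to 344. Fits without DEX+TNF libraries 3 and 4 rest on that pair alone for the DEX+TNF group. The 2 libraries were set apart by low Nfkbia, so the calls of these fits in DEX+TNF versus DEX+PBS are a description only.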

Additional observations from a re-analysis of the deposited data

Results flagged for a closer look

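Bak1 in DEX+TNF library 3, at 16.1 normalised CPM, lay far below the other 3 libraries of its group (33.2, 35.5 and 34.4). The gap to the nearest of them was 0.879 of the range of the group, above the 95% critical value of Dixon's test for 4 samples. Of the 40 groups of values examined (10 genes in 4 groups) this was the 1 that passed, and chance passes about 1 in 20. In the same library Nfkbia was at 28.3 normalised CPM, against 330 and 382 in DEX+TNF libraries 1 and 2. Nfkbia was low in library 4 as well, at 41.0, where Bak1 was at 34.4. A link between the 2 genes was not tested.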

How the results depend on the processing

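In PBS+TNF versus PBS+PBS 4 members were called under all 8 other settings, and 3 or 4 when each of the 16 libraries was left out. Counts were 0 under every setting tried for the interaction, DEX+TNF versus PBS+TNF, and DEX+PBS versus PBS+PBS. In DEX+TNF versus DEX+PBS 1 member was called, against 0 with no low-count filter, with only the 2 groups compared or with the replicate block, 3 with DESeq2, 3 without DEX+TNF libraries 3 and 4, and 0 to 3 on leaving out each library (3 without DEX+TNF library 3 or 4, otherwise 0). The cause was not tested. Of 50 member values, 22 changed sign under some setting, and 0 of these were called. With upper-quartile factors, which moved the median log2 value of all genes in PBS+TNF versus PBS+PBS from -0.03 to -0.15 and the genes called higher and lower from 844 and 632 to 747 and 865, Bcl2 was at -0.086 in that comparison and 0.00495 in DEX+TNF versus PBS+TNF, and Bax at 0.038 in the interaction, whose median moved from 0.05 to 0.10. Without DEX+TNF libraries 3 and 4, DEX+TNF versus PBS+TNF gave Bcl2 0.055, Bcl2l1 -0.089, Bax -0.11, Bid 0.16 and Bcl2l11 -0.31, DEX+TNF versus DEX+PBS gave Bcl2l11 -0.27, and the interaction gave Bid 0.51, Bad -0.34 and Bcl2l11 -0.14. Pmaip1 in DEX+TNF versus PBS+TNF, at 0.0014, became -0.014 with RLE factors, -0.013 with DESeq2, -0.00518 with only the 2 groups and -0.0554 with the replicate block. On leaving out each library in turn, the log2 values in PBS+TNF versus PBS+PBS had these ranges: Bcl2 -0.19 to 0.20, Bax -0.45 to 0.039, Bbc3 -0.53 to 0.045 and Bcl2l11 -0.75 to 0.088. The log2 values without 1 library in DEX+TNF versus PBS+TNF had these ranges: Bcl2 -0.18 to 0.073, Bad -0.68 to 0.16, Pmaip1 -0.19 to 0.25 and Bcl2l11 -0.22 to 0.84. Without 1 library, values in DEX+TNF versus DEX+PBS had these ranges: Bcl2l1 -0.46 to 0.10 and Bcl2l11 -0.18 to 0.50. The log2 values without 1 library in DEX+PBS versus PBS+PBS had these ranges: Mcl1 -0.12 to 0.096, Bax -0.045 to 0.46, Bad -0.96 to 0.18, Bbc3 -0.30 to 0.21 and Bcl2l11 -0.34 to 0.049. Without 1 library, values in the interaction had these ranges: Bax -0.33 to 0.16, Bid -0.75 to 0.037, Bad -0.35 to 0.81 and Bcl2l11 -0.050 to 1.01. Over all genes, DESeq2 called 259 in DEX+TNF versus DEX+PBS and 274 in DEX+TNF versus PBS+TNF, where edgeR called 40 each. Same-numbered libraries of different groups had correlated deviations of -0.37 to 0.50 (median 0.11, over 0.1 in 12 of 24 pairs), against a median of -0.06 and 20 of 72 pairs over 0.1 for different numbers, and 7 of 16 libraries were closest to one with their own number. The labels name no shared animal, day or batch and not every same-numbered pair was over 0.1, and the numbers were treated as names only. The replicate block called 4 members and 1482 genes in PBS+TNF versus PBS+PBS and 0 members elsewhere, with 1 gene in DEX+PBS versus PBS+PBS, 16 in DEX+TNF versus PBS+TNF and 0 in DEX+TNF versus DEX+PBS or the interaction. Reads were fewest for Bcl2l11, with 4 to 72 a library, and Bid had 5 in its lowest library.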
